A study of Mus musculus with 15 samples.

Results

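The comparison described here asks what the double-stranded RNA mimic BO-112 changed in MC38 tumours that were also given DMXAA. It sets the 4 tumours injected with BO-112+DMXAA against the 4 injected with DMXAA alone, chosen by the treatment in the sample labels, and covers all 17712 measured genes. These are 8 of the 15 tumours sequenced, and the others received BO-112 alone (4 tumours) or vehicle (3 tumours). MC38 is a mouse colon carcinoma line. The cells were grown under the skin of the flank in C57BL/6 mice, and whole tumours were injected once they measured about 5 mm. Each injection had a volume of 100 µL. The DMXAA group received 100 µg of DMXAA, and the combination group received the same 100 µg together with 50 µg of BO-112. Vehicle was PBS with DMSO and glucose, and both groups compared here carry DMXAA. All tumours were taken 24 h after injection. The age and sex of the mice, and the fluid in which the agents were given, are not given in the sources used here. RNA came from whole tumours, so fewer cells of a type and less RNA per cell cannot be told apart.

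BO-112 is poly I:C, a synthetic double-stranded RNA, complexed with a carrier. Double-stranded RNA is sensed in endosomes by TLR3 and in the cytosol by RIG-I and MDA5, and both routes lead to type I interferon and to NF-kB. DMXAA binds mouse STING, the adaptor that normally answers cytosolic DNA, and also leads to type I interferon through the kinase TBK1. Secreted interferon then acts on its receptor and switches on the interferon-stimulated genes, many of which carry in their promoters the interferon-stimulated response element. The agents thus enter by different sensors and share their later steps, and the comparison asks what BO-112 adds once DMXAA is present.

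The DMXAA libraries held 14710769 to 19660511 reads in genes and the combination libraries 12725316 to 16133547. Levels are given as CPM, the reads of a gene scaled to the size of its library, which can be compared between tumours but not between genes. The 4 combination libraries were alike, with a median correlation to the rest of their group of 0.984 to 0.988. The DMXAA libraries were less so: the values were 0.964 to 0.972 for replicates 1, 3 and 4 and 0.909 for DMXAA replicate 2. DMXAA replicates 1 and 4 correlated more with the combination libraries (medians 0.972 and 0.985) than with their own group (0.964 and 0.972). For DMXAA replicates 2 and 3 the medians with the combination were 0.905 and 0.96, below those with their own group (0.909 and 0.964). In DMXAA replicate 2 the shortest 25% of genes lay 0.585 from the mean of the other libraries and the longest 25% -0.438, as medians in log2 units. DMXAA replicate 3 tilted the same way, by 0.341 and -0.233, and the combination libraries stayed within -0.052 and 0.131. DMXAA replicates 1 and 3 also held skeletal muscle RNA, with 1120 and 537 CPM summed over 17 muscle genes against 13.6 and 19.4 in DMXAA replicates 2 and 4 and 18.7 to 26.9 with the combination. The part of these differences in the results was not tested beyond the fits without those libraries. Of the epithelial markers looked up only Epcam is reported here, at 0.0 to 1.06 CPM over the 8 libraries. This 1 marker does not show whether the tumours lacked epithelial expression.

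Adding BO-112 to DMXAA was followed by higher expression of 127 genes and lower expression of 30, out of 17712 tested, with limma and an adjusted p under 0.05. This is 0.886% of all genes, 0.717% higher and 0.169% lower. At an unadjusted p under 0.05 there were 4239 genes (23.9%), 2233 higher (12.6%) and 2006 lower (11.3%), and the unadjusted counts of the lists below are to be read against these shares. The change was at least 2-fold for 58 of the genes that rose and 16 of those that fell. Interferon-stimulated genes, sensors of double-stranded RNA and NF-kB targets were among the genes that rose, and 38 of the 127 belonged to at least 1 of the pathway or cell type lists used here. All 38 are named below. In 123 of the 127 every combination tumour was above every DMXAA tumour, and in 29 of the 30 every one was below, where over all genes 4.54% and 3.43% had groups apart in these directions.

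**Figure D1:**
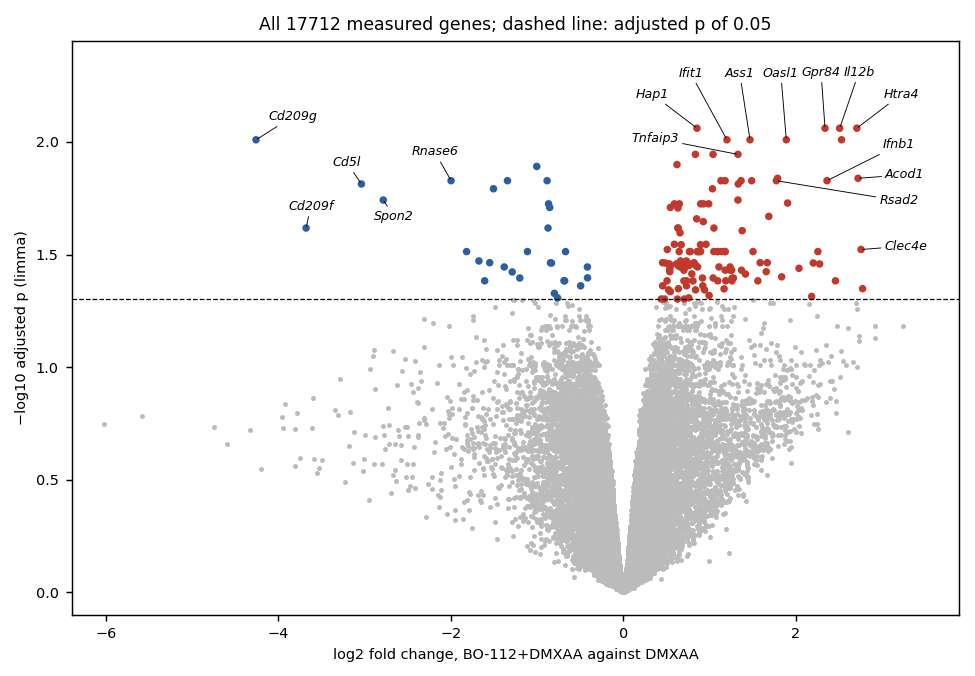
Change of each of the 17712 genes between BO-112+DMXAA and DMXAA (log2, horizontal axis) against the −log10 of its adjusted p (vertical axis), 4 tumours a group. Red points are the 127 genes that were higher with both agents, blue points the 30 that were lower, and the dashed line marks an adjusted p of 0.05; the smallest adjusted p was 0.00868.

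The number of genes past the threshold depended heavily on single tumours. Without combination replicate 1 or replicate 2 it was 0, with 3435 and 2792 genes at an unadjusted p under 0.05 and smallest adjusted p of 0.0523 and 0.0612. It was 47 without combination replicate 4 and 234 without replicate 3. Leaving out DMXAA replicate 1, 2, 3 or 4 gave 1765, 126, 5 and 1504 genes. Of these 979, 100, 5 and 859 were higher and 786, 26, 0 and 645 lower. List counts given below for such fits are to be read against the counts over all genes in the same fit. The 5 genes without DMXAA replicate 3 were Ass1, Htra4, Il12b, Hap1 and Gpr84, and these were also the genes called in 6 of the 8 fits that left out a tumour, which no gene exceeded. Without DMXAA replicates 2 and 3 together 7 genes passed, 5 of them shared with the 157, and with the spread taken from the 2 groups alone 4, which were Cxcl11, Cd209f, Il12b and Gpr84. Leaving out the libraries of the other groups gave 71 to 168. All 157 genes kept the sign of their change in each of the 8 fits. For the 123 raised and 29 lowered genes whose groups were apart, leaving out a tumour could not turn the sign. The kept sign is therefore no measure of stability. Every call named below is lost without combination replicate 1 and without combination replicate 2. Limma-voom on the same reads called 136 genes, 131 of them shared.

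**Figure D2:**
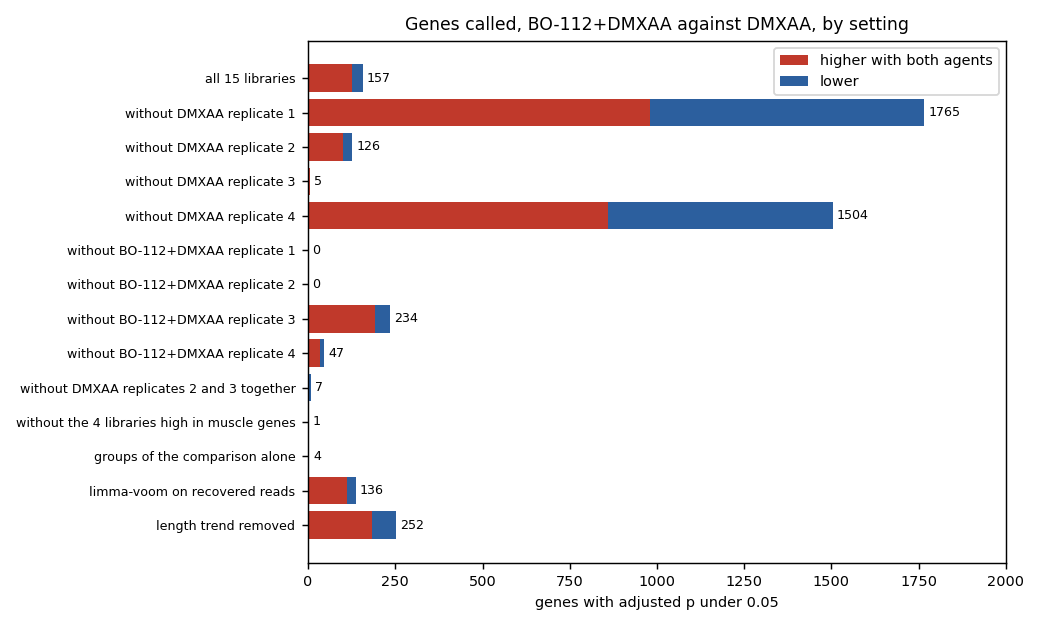
Number of genes with an adjusted p under 0.05 in BO-112+DMXAA against DMXAA (horizontal axis) in the fit of all 15 libraries and in fits with libraries or settings changed (vertical axis). Red is higher and blue lower with both agents; the bars run from 0 without combination replicate 1 or 2 to 1765 without DMXAA replicate 1.

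Interferon beta itself was higher. Ifnb1, which encodes it, stood at 0.286, 0.604, 0.277 and 0.153 CPM in DMXAA replicates 1 to 4 and at 1.62, 2.27, 1.17 and 1.65 CPM in combination replicates 1 to 4. All 4 combination tumours were above all DMXAA tumours, though the level was low in both groups. The log2 change was 2.36 ± 0.39 (SE, adjusted p = 0.0149), or 5.15-fold. Ifnb1 was also among the genes past the threshold without DMXAA replicates 2 and 3. Of the 7 measured genes for type I interferons and their receptor chains it was the only one to pass. Ifnar1, a chain of the receptor that interferon beta binds, changed by 0.28 ± 0.13 (adjusted p = 0.2), and Ifnlr1, a chain of the interferon lambda receptor, by 1.95 ± 0.55 (adjusted p = 0.0929).

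Interferon-stimulated genes rose with it in part. Of 41 measured members of the type I interferon-stimulated list 14 were higher and none lower, against 0.717% of all genes higher, and their median log2 change was 0.82 where that of all genes was 0.00. The count was 10 without DMXAA replicate 2, 0 without DMXAA replicate 3 and 28 without DMXAA replicate 1, and the median was 0.54 without replicates 2 and 3. Over all 17712 genes 100, 5 and 979 were higher without DMXAA replicate 2, 3 and 1, so the list count moved with the total. Rsad2, which encodes the antiviral enzyme viperin, measured 202, 95.9, 110 and 248 CPM with DMXAA and 603, 670, 357 and 505 CPM with the combination. The groups were apart, with the lowest combination value in replicate 3, and the log2 change was 1.78 ± 0.29 (adjusted p = 0.0149). Oasl1, an inhibitor of IRF7 translation in mouse, measured 92.2, 38.9, 59.2 and 93.3 CPM against 294, 324, 175 and 225 CPM. Its groups were apart too and its log2 change was 1.89 ± 0.27 (adjusted p = 0.00978). Ifit1, which binds foreign RNA by its end, went from 158, 164, 150 and 220 CPM to 470, 472, 345 and 314 CPM. Here DMXAA replicate 2 lay with its group, and the log2 change was 1.20 ± 0.17 (adjusted p = 0.00978).

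The other 11 interferon-stimulated genes past the threshold had log2 changes from 0.84 to 1.66 and groups that did not overlap. They were Ifit2, Ifit3, Mx1, Mx2, Oas2, Ifi44, Cmpk2, Herc6, Trim30a, Usp18 and Ifih1. Mx1, a GTPase that restricts influenza virus, rose by 1.66 ± 0.35 and Usp18, which removes the ISG15 tag and damps interferon signalling, by 0.89 ± 0.17 (adjusted p = 0.0377 and 0.0307). Familiar members of the list did not pass. Isg15 changed by 0.66 ± 0.18 (adjusted p = 0.0919) and Irf7, the transcription factor that amplifies interferon production, by 0.70 ± 0.24 (adjusted p = 0.136). Cxcl10, an interferon-induced T cell attractant, changed by 0.95 ± 0.34 (adjusted p = 0.141). In each of these 3 genes the ranges of the groups overlapped. Ifit3 and its copy Ifit3b, and the Oas, Mx and Trim30 families, share sequence, and reads could be split between copies.

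**Figure D3:**
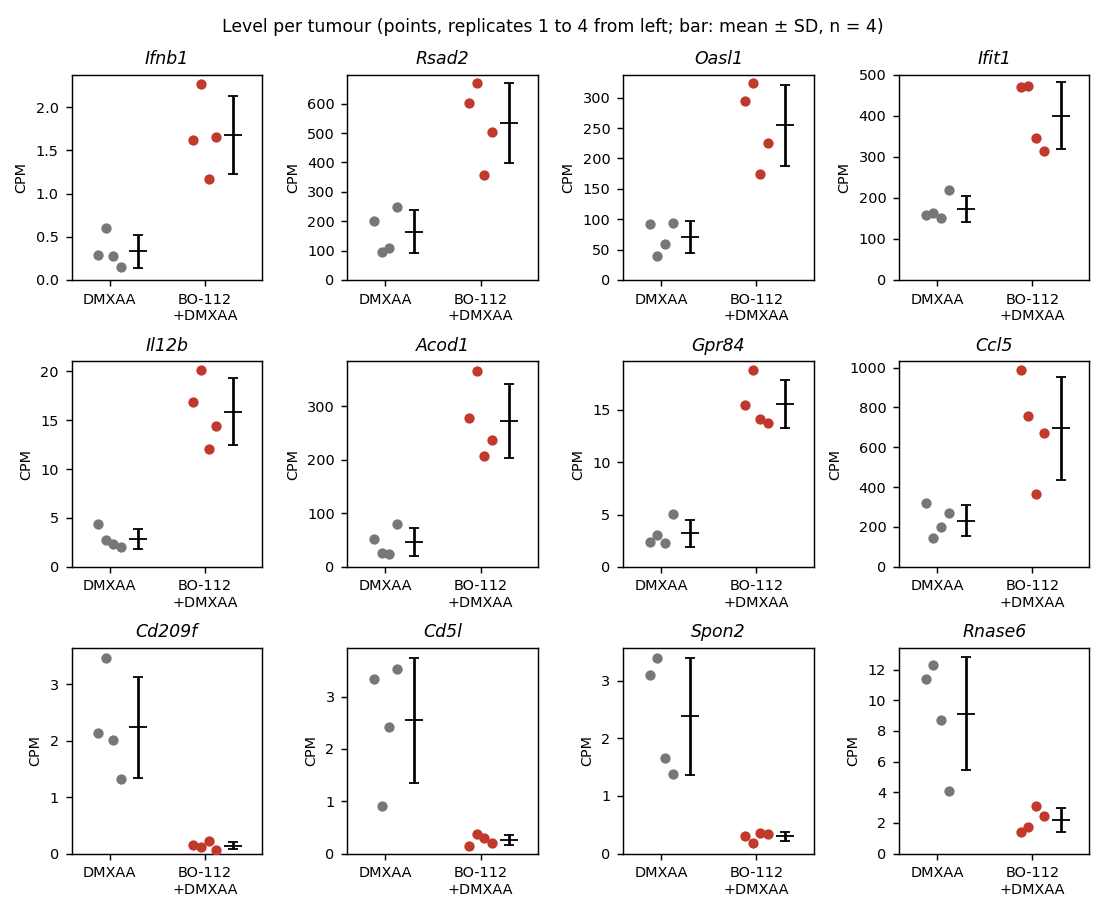
Level of 12 genes in each tumour (CPM, vertical axes) with DMXAA alone (grey) and BO-112+DMXAA (red); points are tumours, replicates 1 to 4 from left, and bars the mean ± SD (n = 4). Every combination tumour lies above every DMXAA tumour for Ifnb1 to Ccl5, as for Rsad2 with 357 to 670 against 95.9 to 248 CPM, and under every DMXAA tumour for Cd209f, Cd5l, Spon2 and Rnase6.

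The promoters of these genes were read for the motifs named in the background. At least 1 RefSeq promoter window (GRCm38.p6), from 250 bases before to 50 bases after the start, was found for 99 of the 127 genes that rose and 22 of the 30 that fell. A gene counted as a match if any of its windows held the motif. Of the measured genes 2351 had more than 1 window and so more chances to match. The core of the interferon-stimulated response element was searched on both strands as GAAA, any 2 bases and GAAA again (reverse complement TTTC, any 2 bases, TTTC). It was present in 17 of the 99 (17.2%), in 1 of the 22 (4.55%) and in 463 of the 11863 measured genes with a window (3.9%). It was also present in 15 of the 31 listed interferon-stimulated genes with a window (48.4%), and in 5 of the 10 of these that rose (50.0%). An NF-kB site, searched on both strands as GGGA, any base and TTTCC (reverse complement GGAAA, any base, TCCC), was present in 3 of the 99 (3.03%) and in 68 of the 11863 (0.573%). The 3 were Cxcl1, Nfkbia and Tlr3. The motifs were counted apart, and none of the windows printed here held both. A match is a description of the letters in the window and was not tested for binding. The letters searched were not in the windows of Ifnb1 and Il12b, but only these exact patterns were searched. Their absence does not show that a window lacks response elements or NF-kB sites of another spelling or spacing. The windows shown are those of 4 interferon-stimulated genes and 2 NF-kB targets that rose, chosen because they hold a motif. They are written 5′ to 3′ on the gene's strand, with the motif in capitals. They lie at chr19:34640639-34640938 (plus strand) for Ifit1, chr19:34583279-34583578 (plus strand) for Ifit3, chr12:26456403-26456702 (minus strand) for Rsad2, chr2:62646206-62646505 (minus strand) for Ifih1, chr5:90890995-90891294 (plus strand) for Cxcl1 and chr12:55492598-55492897 (minus strand) for Nfkbia.
Ifit1: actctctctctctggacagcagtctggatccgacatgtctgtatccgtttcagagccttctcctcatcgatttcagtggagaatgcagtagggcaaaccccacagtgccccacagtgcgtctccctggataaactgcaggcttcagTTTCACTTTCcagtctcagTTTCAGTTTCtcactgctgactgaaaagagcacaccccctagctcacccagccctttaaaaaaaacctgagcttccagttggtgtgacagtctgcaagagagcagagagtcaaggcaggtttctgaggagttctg
Ifit3: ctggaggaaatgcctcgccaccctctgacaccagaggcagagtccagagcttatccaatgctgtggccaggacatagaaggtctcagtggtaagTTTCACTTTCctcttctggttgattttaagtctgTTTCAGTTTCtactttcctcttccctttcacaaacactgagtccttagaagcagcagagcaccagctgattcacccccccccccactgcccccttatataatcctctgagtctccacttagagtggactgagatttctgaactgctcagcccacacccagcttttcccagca
Rsad2: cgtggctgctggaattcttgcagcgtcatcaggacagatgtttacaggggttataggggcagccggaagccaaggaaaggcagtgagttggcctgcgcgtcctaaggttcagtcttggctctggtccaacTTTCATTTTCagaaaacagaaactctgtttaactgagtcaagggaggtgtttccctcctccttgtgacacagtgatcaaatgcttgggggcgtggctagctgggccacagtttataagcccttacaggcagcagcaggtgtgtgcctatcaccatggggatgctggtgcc
Ifih1: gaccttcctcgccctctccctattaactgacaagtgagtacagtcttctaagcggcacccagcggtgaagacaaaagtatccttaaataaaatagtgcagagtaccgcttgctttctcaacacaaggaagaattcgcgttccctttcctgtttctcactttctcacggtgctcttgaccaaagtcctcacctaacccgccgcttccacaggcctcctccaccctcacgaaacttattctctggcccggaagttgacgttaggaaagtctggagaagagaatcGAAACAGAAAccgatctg
Cxcl1: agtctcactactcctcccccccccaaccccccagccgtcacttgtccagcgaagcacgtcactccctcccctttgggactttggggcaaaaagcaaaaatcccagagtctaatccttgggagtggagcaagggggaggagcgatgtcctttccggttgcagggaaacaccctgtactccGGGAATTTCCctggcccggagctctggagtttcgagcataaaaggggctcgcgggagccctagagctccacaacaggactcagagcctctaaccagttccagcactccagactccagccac
Nfkbia: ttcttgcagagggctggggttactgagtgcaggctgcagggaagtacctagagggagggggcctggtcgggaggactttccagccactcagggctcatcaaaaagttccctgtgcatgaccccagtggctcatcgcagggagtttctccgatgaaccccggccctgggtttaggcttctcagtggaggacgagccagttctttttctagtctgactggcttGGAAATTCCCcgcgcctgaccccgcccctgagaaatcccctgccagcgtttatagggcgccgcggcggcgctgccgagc

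In Ifit1 the motif began 104 and 85 bases before the start, in Ifit3 156 and 122 bases, and in Rsad2 120 bases. In Ifih1 it lay after the start. The NF-kB site began 71 bases before the start of Cxcl1 and 29 bases before that of Nfkbia.

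Sensors of double-stranded RNA were among the genes that rose. Of 22 measured members of that pathway 7 were higher and none lower, with a median log2 change of 0.61 (0.47 without DMXAA replicate 2, when 5 members passed, and 0.40 without DMXAA replicates 2 and 3, when none did). Ifih1, which encodes MDA5, a sensor of long double-stranded RNA, measured 99.7, 74.9, 78.4 and 113 CPM with DMXAA and 170, 198, 154 and 154 CPM with the combination (0.90 ± 0.16, adjusted p = 0.0188). Ddx58, which encodes RIG-I, a sensor of RNA with a free 5′ triphosphate, measured 244, 160, 215 and 299 CPM against 427, 438, 374 and 381 CPM (0.85 ± 0.15, adjusted p = 0.0219). For both sensors all combination tumours were above all DMXAA tumours. Tlr3, the endosomal receptor, rose by 0.70 ± 0.15 (adjusted p = 0.0414), from between 32.3 and 46.6 CPM to between 58.1 and 68.1 CPM. Ddx60, a helicase linked to RIG-I signalling, rose by 1.13 ± 0.18, and Trim25, a ubiquitin ligase that acts on RIG-I, by 0.67 ± 0.13 (adjusted p = 0.0149 and 0.0286). Oas2 and Oasl1 complete the 7 members.

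On the STING side few genes passed. The 16 measured members of the STING pathway and its shared kinases had a median log2 change of 0.22, and 0.07 without DMXAA replicate 2. In 12 of them the change was positive, and in 3 every combination tumour was above every DMXAA tumour, against 4.54% of all genes. Of the 16 members 1 was higher and none lower (6 higher and 2 lower at an unadjusted p under 0.05, 1 higher by limma-voom). It was Ikbke, an interferon-inducible relative of TBK1, with 51.4, 30.1, 27.3 and 40.4 CPM against 65.4, 74.8, 60.6 and 73.9 CPM (0.92 ± 0.20, adjusted p = 0.0402). Its groups did not overlap, and it did not pass without DMXAA replicate 2. Tmem173, which encodes STING, the target of DMXAA, changed by -0.28 ± 0.14 with overlapping groups (adjusted p = 0.222), between 46.6 and 71.5 CPM over the 8 tumours.

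Among cytokines of inflammation and targets of NF-kB, 8 of the 36 measured were higher and none lower, with a median log2 change of 0.58 that stayed between 0.52 and 0.63 when any of the 8 tumours was left out. The count was 14 without DMXAA replicate 1 or 4, 1 without DMXAA replicate 3, 3 without combination replicate 4, and 0 without combination replicate 1 or 2 or without DMXAA replicates 2 and 3 together. Over all genes 979 and 859 were higher without DMXAA replicate 1 and 4, 5 without DMXAA replicate 3 and 35 without combination replicate 4. The largest change of the 8 was that of Il12b, which encodes the p40 subunit shared by interleukins 12 and 23. It measured 4.34, 2.72, 2.29 and 1.99 CPM with DMXAA and 16.9, 20.1, 12.1 and 14.4 CPM with the combination. The groups were far apart and the log2 change was 2.51 ± 0.33, a 5.7-fold rise (adjusted p = 0.00868). Il12b also passed with the spread taken from the 2 groups alone and was the only gene to pass without the 4 libraries high in muscle genes. The other 7 were Il1rn, Tnfaip3, Tnip1, Nfkbia, Nfkbie, Birc3 and Traf1.

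Several of those 7 encode inhibitors of the pathway that induces them. Tnfaip3, the ubiquitin-editing enzyme A20, measured 48.5, 27.2, 29.6 and 50 CPM against 99.1, 115, 73.5 and 93.3 CPM, with groups apart and a log2 change of 1.33 ± 0.20 (adjusted p = 0.0114). Tnip1, a partner of A20, rose by 0.93 ± 0.16 (adjusted p = 0.0188), and Nfkbia and Nfkbie, which encode inhibitors that hold NF-kB in the cytoplasm, by 0.51 ± 0.11 and 0.73 ± 0.16 (adjusted p = 0.0414 and 0.0436). Il1rn, the interleukin 1 receptor antagonist, measured 163, 67.9, 77.3 and 181 CPM against 399, 412, 226 and 341 CPM (1.59 ± 0.32, adjusted p = 0.0344). All its combination values exceeded its DMXAA values. On the list of interleukin 10 and feedback inhibitors 5 of 22 members were higher and none lower, against 0.717% of all genes higher. They were Usp18, Nfkbia, Tnfaip3, Il1rn and Trim30a, all counted already in the interferon-stimulated or NF-kB lists. The classical cytokines did not pass: Tnf changed by 0.72 ± 0.32 (adjusted p = 0.192) and Il6 by 1.04 ± 0.41 (adjusted p = 0.162).

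Acod1, Gpr84, Clec4e and Ass1 were also higher. Acod1, whose enzyme makes itaconate in activated macrophages, measured 52.8, 25.5, 24.7 and 79.9 CPM with DMXAA and 279, 367, 208 and 238 CPM with the combination. The lowest combination tumour was far above the highest DMXAA tumour, and the log2 change was 2.72 ± 0.43 (adjusted p = 0.0145). Gpr84, a receptor for medium-chain fatty acids on myeloid cells, went from 2.33, 3.09, 2.29 and 5.06 CPM to 15.5, 18.8, 14.1 and 13.8 CPM (2.34 ± 0.29, adjusted p = 0.00868). Clec4e, the receptor Mincle, measured 27.1, 5.06, 10.6 and 31.3 CPM against 123, 135, 54.5 and 107 CPM (2.76 ± 0.52, adjusted p = 0.0301). In both genes the groups were apart, although DMXAA replicate 2 was the lowest for Clec4e. Ass1, which makes argininosuccinate and so recycles citrulline to arginine, the substrate of nitric oxide synthase, measured 70.6, 56.7, 90.7 and 94.6 CPM against 248, 279, 143 and 205 CPM (1.47 ± 0.21, adjusted p = 0.00978). Nos2, the inducible synthase, did not pass: it changed by 1.99 ± 0.53 with groups apart (adjusted p = 0.0815).

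Large rises were also found in genes outside the lists. Htra4, of the HtrA serine protease family, measured 3.86, 1.74, 3.6 and 5.52 CPM against 26.9, 25.9, 15.6 and 23.3 CPM (2.71 ± 0.36, adjusted p = 0.00868). Every combination tumour was above every DMXAA tumour. H2-M2, a non-classical class I gene, rose by 2.78 ± 0.60, Tnfsf15, a cytokine of the tumour necrosis factor family, by 2.26 ± 0.43, and Heatr9 by 2.21 ± 0.44 (adjusted p = 0.0449, 0.0307 and 0.0345), with levels between 0.208 and 1.67 CPM in the DMXAA tumours. Olfr810, annotated as an olfactory receptor, rose by 2.04 ± 0.42 and Tnfaip8l3 by 1.79 ± 0.28. Hap1, encoding huntingtin-associated protein, measured 14.4, 13.6, 13.8 and 13 CPM against 26.5, 26.2, 22.5 and 24 CPM (0.85 ± 0.11, adjusted p = 0.00868).

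Chemokines divided. Among 22 measured chemokines of lymphocytes and monocytes 1 was higher and none lower, with a median of 0.11. It was Ccl5, an attractant of T cells and monocytes, at 318, 143, 199 and 268 CPM with DMXAA and 989, 758, 364 and 674 CPM with the combination. The lowest combination value, in replicate 3, was just above the highest DMXAA value, and the log2 change was 1.56 ± 0.34 (adjusted p = 0.0414), a call that was lost without DMXAA replicate 2. Cxcl11 changed by 2.00 ± 0.58 (adjusted p = 0.0977) and Cxcl9 by 0.31 ± 0.52 (adjusted p = 0.724), both ligands of CXCR3. Among 8 neutrophil chemokines and growth factors only Cxcl1 passed, a ligand of CXCR2, at 19.8, 14.3, 12.9 and 21.5 CPM against 48.2, 25.4, 34.7 and 33.3 CPM (1.04 ± 0.22, adjusted p = 0.0402). Its groups were apart, but the median of that list fell from 0.84 to 0.14 without DMXAA replicate 2, and limma-voom called none of its members.

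Of 23 neutrophil markers Clec4e and Acod1, which macrophages also express, were higher and none was lower. The more specific members were spread widely within both groups. S100a9, a calcium-binding alarmin, ranged from 3.7 to 47.8 CPM with DMXAA and from 9.52 to 74.9 CPM with the combination (0.82 ± 0.74, adjusted p = 0.482). Cxcl2 of the chemokine list, another ligand of CXCR2, ranged from 1.96 to 60.2 CPM and from 11.8 to 83.4 CPM (1.54 ± 0.84, adjusted p = 0.258). Without Clec4e and Acod1 the summed level of the other 21 members was 184 to 429 CPM with DMXAA and 267 to 608 CPM with the combination, and these ranges overlapped. Its part in the rise of Clec4e and Acod1 was not tested.

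Among the genes that fell most were 3 known from tissue macrophages. Cd209f, which encodes a lectin of the DC-SIGN family, measured 2.14, 3.47, 2.01 and 1.33 CPM with DMXAA and 0.154, 0.123, 0.219 and 0.0689 CPM with the combination. The groups were far apart and the log2 change was -3.68 ± 0.67 (adjusted p = 0.0241). Its neighbour in the family, Cd209g, was at 0.953, 1.81, 0.97 and 0.307 CPM with DMXAA, while combination replicates 1 to 3 held no read and replicate 4 held 1 (adjusted p = 0.00978). Cd5l, which encodes a secreted macrophage protein that inhibits apoptosis, measured 3.33, 0.906, 2.42 and 3.53 CPM against 0.154, 0.368, 0.292 and 0.207 CPM (-3.04 ± 0.50, adjusted p = 0.0154). Every combination tumour was below every DMXAA tumour. Reads of the Cd209 genes could be split between copies.

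Spon2, an extracellular matrix protein, fell from 3.1, 3.4, 1.66 and 1.38 CPM to 0.309, 0.184, 0.366 and 0.344 CPM (-2.78 ± 0.47, adjusted p = 0.0181). Rnase6, an antimicrobial ribonuclease of myeloid cells, measured 11.4, 12.3, 8.73 and 4.09 CPM against 1.39, 1.72, 3.14 and 2.48 CPM (95% interval of the log2 change from -2.68 to -1.32, adjusted p = 0.0149). Ltb4r1, the high-affinity receptor for leukotriene B4, fell by 1.38 (SE 0.28) and Nxpe5 by 1.50 (SE 0.25) on the log2 scale, both with groups apart. In 20 of the 30 lowered genes the highest value was that of DMXAA replicate 2, the library most tilted with gene length, and in 64 of the 127 raised genes the lowest DMXAA value was in that library. Lowered examples in DMXAA replicate 2 are S100a16 at 29.7 CPM, Tmem158 at 6.57 CPM, Ckb, the brain form of creatine kinase, at 155 CPM and Zfp771 at 32.8 CPM, with log2 changes of -1.82, -1.67, -1.55 and -1.29. DMXAA replicate 3 was the lowest for another 48 of the 127, and combination replicate 3 was the lowest of its group for 94. The genes that fell had a median exon length of 2586 bases and those that rose 4451 bases, against 3723 bases for all genes. The part of the length tilt in these calls was not tested gene by gene; with the trend on length removed from each library, 144 of the 157 calls were kept.

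Macrophage markers as a list did not move one way. None of 26 passed (3 were higher and 5 lower at an unadjusted p under 0.05, and limma-voom called 0), with a median of -0.26 that was -0.08 without DMXAA replicate 2. Cd163, a scavenger receptor of resident macrophages, was at 2.52, 2.11, 1.8 and 0.869 CPM against 0.154, 0.368, 0.804 and 0.551 CPM. Its groups were apart but it did not pass (-1.97 ± 0.58, adjusted p = 0.0977). Mrc1, the mannose receptor, changed by -0.68 ± 0.43 (adjusted p = 0.325) and Trem2, a lipid receptor of tumour macrophages, by -0.88 ± 0.26 (adjusted p = 0.0967). Of 20 monocyte and 24 dendritic cell markers none passed, with 6 and 1 higher and 2 and 4 lower at an unadjusted p under 0.05 and none called by limma-voom. Clec10a, a lectin of dendritic cells and macrophages, changed by -2.53 ± 0.71 (adjusted p = 0.0919).

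Lymphocyte genes had mostly lower values but few passed. Of 28 T cell markers none passed (2 higher and 9 lower at an unadjusted p under 0.05, 0 by limma-voom). Their median was -0.57, with 23 of 28 negative. Without DMXAA replicate 4, 7 of them passed as lower, where 645 of all 17712 genes did. Without DMXAA replicate 1 it was 1 of them and 786 of all genes, and the median of the list was -0.38. Trbc2, a constant chain of the T cell receptor, measured 17.9, 21.5, 15 and 8.02 CPM with DMXAA and 4.94, 7.43, 4.9 and 7.09 CPM with the combination (-1.29 ± 0.30, adjusted p = 0.0574). The groups were apart by a small margin. Cd8a changed by -0.74 ± 0.50 (adjusted p = 0.344). Of 26 cytotoxic and natural killer genes 1 was higher, Ccl5 again, and none lower, with a median of -0.54 and 22 negative. Without DMXAA replicate 4 there were 6 lower and without DMXAA replicate 1 there were 2, beside the 645 and 786 of all genes. Klrd1, which encodes the CD94 receptor chain, changed by -0.99 ± 0.23 (adjusted p = 0.054) and Nkg7, a granule protein, by -0.85 ± 0.20 (adjusted p = 0.0589). The effectors Gzmb and Prf1 changed by 0.28 ± 0.38 and -0.01 ± 0.24. Of 11 B cell and plasma cell markers Ighm, the IgM heavy chain, was lower at 33.1, 36.2, 26.3 and 13.9 CPM against 6.17, 9.27, 5.63 and 15.6 CPM (-1.61 ± 0.34, adjusted p = 0.0414). Its groups overlapped, since combination replicate 4 lay above DMXAA replicate 4.

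The interferon gamma response did not pass in any of its 34 measured genes (9 higher and 3 lower at an unadjusted p under 0.05, 1 higher by limma-voom), with a median of 0.25. Gbp9 and Gbp5, guanylate-binding proteins, came nearest with 1.17 ± 0.27 and 1.27 ± 0.30 (adjusted p = 0.0551 and 0.0593), and Ifng itself changed by -1.74 ± 0.84 (adjusted p = 0.217). None of 25 class I presentation genes passed (1 higher at an unadjusted p under 0.05, 0 by limma-voom), and their median was -0.04. None of 13 class II genes passed either (2 higher and 3 lower at an unadjusted p under 0.05, 0 by limma-voom). The class II median was -0.65, and -0.30 without DMXAA replicate 2. H2-DMb1, a chain of the peptide exchange factor, was 213 CPM in that library and 42.8 to 91.6 CPM in the other DMXAA tumours, against 19.7 to 46.2 CPM with the combination. Of 16 checkpoint genes none passed (3 higher and 1 lower at an unadjusted p under 0.05, 0 by limma-voom). Cd274, which encodes PD-L1, changed by 1.23 ± 0.35 with groups that just overlapped (adjusted p = 0.0958).

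**Figure D4:**
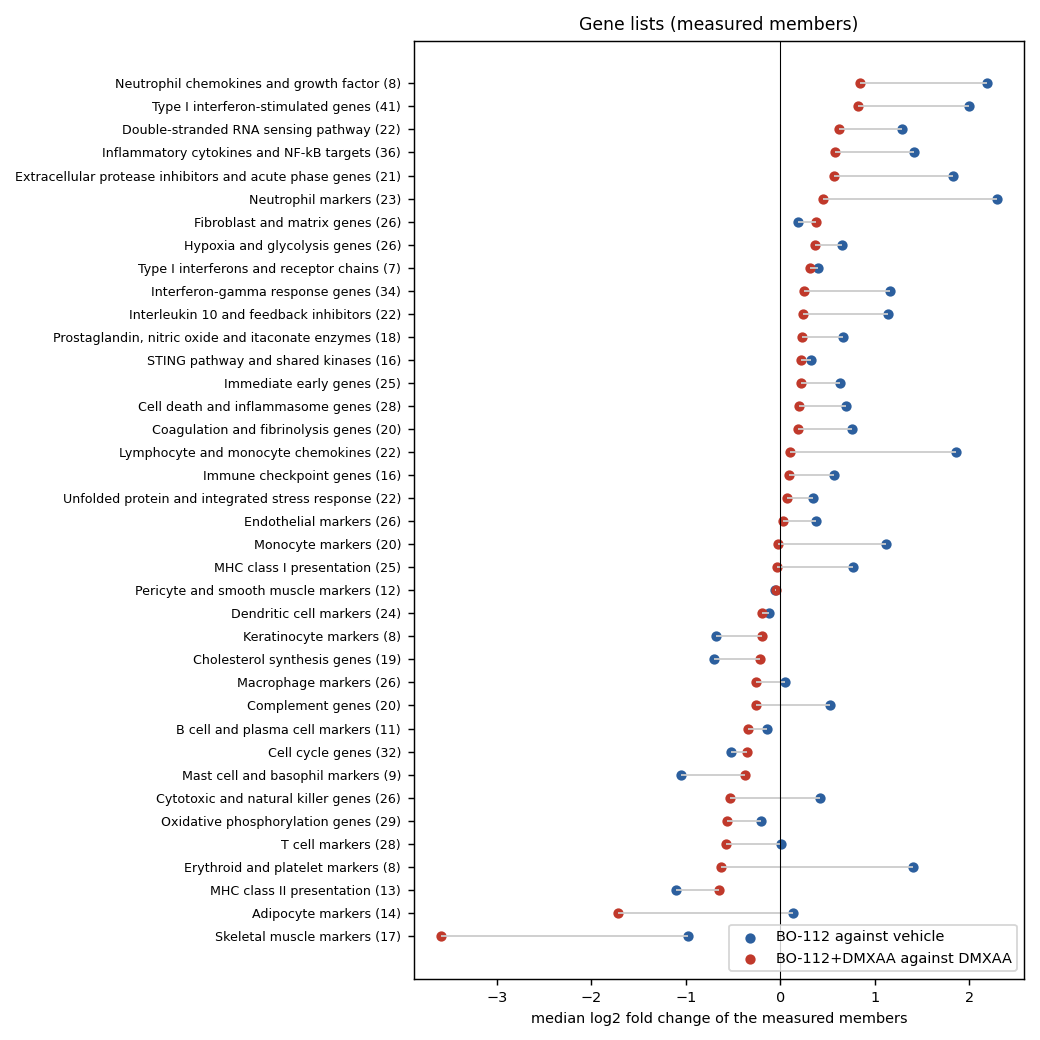
Median log2 change of the measured members of each gene list (number in brackets) in BO-112+DMXAA against DMXAA (red) and in BO-112 against vehicle (blue), from one fit of 15 libraries. The type I interferon-stimulated list lies at 0.82 and 1.99, and the skeletal muscle list is the lowest, at -3.59 with DMXAA present.

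Of 32 cell cycle genes none passed (18 lower at an unadjusted p under 0.05, 0 by limma-voom), but 31 were negative, with a median of -0.35 that stayed between -0.48 and -0.28 when any of the 8 tumours was left out. With 1 tumour left out, 13 passed as lower without DMXAA replicate 1, 5 without DMXAA replicate 4 and 3 without combination replicate 3. Over all 17712 genes 786, 645 and 43 were lower in these fits. E2f1, a transcription factor of S phase entry, changed by -0.45 ± 0.11 (adjusted p = 0.0621) and Mcm5, a subunit of the replicative helicase, by -0.53 ± 0.14 (adjusted p = 0.0795), both with groups apart. Mki67, the Ki-67 antigen, changed by -0.04 ± 0.17 (adjusted p = 0.905). All 29 oxidative phosphorylation genes were negative and none passed (13 lower at an unadjusted p under 0.05, 0 by limma-voom). Their median of -0.56 went to -0.20 without DMXAA replicate 2 and to 0.00 without DMXAA replicates 2 and 3. Cox5a, a subunit of complex IV, was 193 CPM in DMXAA replicate 2 and 109 CPM in replicate 3, where the other 6 tumours lay between 47.5 and 67.2 CPM.

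Genes of host muscle and fat had lower values, but none passed. All 17 skeletal muscle genes were negative (8 lower at an unadjusted p under 0.05, 0 by limma-voom). Acta1, skeletal actin, was 291, 0.0755, 194 and 1.74 CPM with DMXAA and 0.232 to 2.2 CPM with the combination, and the list's median of -3.59 was -0.80 without the 4 libraries high in muscle genes. All 14 adipocyte genes were negative as well (3 lower at an unadjusted p under 0.05, 0 by limma-voom). Lpl, lipoprotein lipase, measured 70.4, 56.1, 22 and 29.4 CPM against 6.71, 9.76, 14.9 and 4.2 CPM (-2.31 ± 0.55, adjusted p = 0.0615), with no overlap. None of 26 endothelial and 26 fibroblast genes passed (2 and 9 higher, 2 and 5 lower at an unadjusted p under 0.05, 0 by limma-voom). Their medians were 0.03 and 0.38, and the second was 0.10 without DMXAA replicate 2. Pecam1, the endothelial adhesion molecule CD31, changed by 0.02 ± 0.17 (adjusted p = 0.944).

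Among the other lists, Vegfa, the vascular growth factor, was the one hypoxia gene to pass. It measured 186, 137, 164 and 218 CPM with DMXAA and 296, 317, 264 and 334 CPM with the combination (0.80 ± 0.17, adjusted p = 0.0386). The groups were apart, and the median of the list was 0.36. Of 22 stress response genes Slc7a11, the cystine transporter, rose by 1.09 ± 0.21 and Vldlr, a lipoprotein receptor, by 0.71 ± 0.16 (adjusted p = 0.0307 and 0.0499). Of 28 cell death genes Casp4, the caspase that senses intracellular lipopolysaccharide, rose by 0.64 ± 0.12 (adjusted p = 0.0241), from between 45.7 and 55.5 CPM to between 66.5 and 92.3 CPM. Of 21 protease inhibitor and acute phase genes Cp, ceruloplasmin, rose by 1.18 ± 0.23 (adjusted p = 0.0307). No member passed among the immediate early, cholesterol, complement, coagulation, mast cell, erythroid, keratinocyte and pericyte lists, with 8, 0, 2, 1, 0, 0, 0 and 0 higher and 1, 0, 4, 1, 0, 1, 1 and 2 lower at an unadjusted p under 0.05 and 0 called by limma-voom in each.

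The same addition of BO-112 can be read without DMXAA, as BO-112 (n = 4) against vehicle (n = 3), which shares no tumour with the comparison above. The spread of each gene was still estimated once from all 15 libraries, so the calls of both comparisons are not independent. There 1353 genes were higher (7.64%) and 763 lower (4.31%). Of the 127 genes that rose on top of DMXAA 106 (83.5%) also rose without it, and 126 had the same sign. Of the 30 that fell 18 (60.0%) also fell without it, and Cd5l and Metrnl rose. Seen from the other side, of the 1353 genes raised without DMXAA 1159 (85.7%) had a positive change with it, but 7.83% passed, and their median log2 change was 1.10 without and 0.35 with DMXAA. Of the 763 lowered genes 603 (79.0%) were negative with DMXAA and 2.36% passed, with medians of -0.89 and -0.27. Both sets were picked for passing without DMXAA, which by itself enlarges their change there. These medians and shares therefore do not measure how far the effect of BO-112 differed with DMXAA. Over the 13955 genes of at least 1 CPM the log2 changes with and without DMXAA had a Pearson r of 0.45, a description across genes, which are not independent.

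The difference of the BO-112 effect with and without DMXAA was tested directly as an interaction. It passed for 239 genes (1.35%), with 204 lower (1.15%) and 35 higher (0.198%) in the presence of DMXAA; the split was 70 and 44 with libraries scaled by total count. With that scaling the median of all genes in the interaction was 0.23 in place of 0.02. Ifnb1 rose by 5.70 on the log2 scale without DMXAA and by 2.36 with it, a difference of -3.33 ± 0.57 (adjusted p = 0.0135). For Rsad2 the changes were 4.25 and 1.78 (difference -2.48, adjusted p = 0.013) and for Ccl5 4.52 and 1.56 (difference -2.95, adjusted p = 0.012). Isg15 rose by 2.89 without DMXAA and changed by 0.66 with it (difference -2.24, adjusted p = 0.0021). All 41 interferon-stimulated genes rose without DMXAA, with a median of 1.99, and in 26 of the 41 the difference passed, all 26 lower with DMXAA.

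Some genes that BO-112 raised strongly alone did not differ past the threshold on top of DMXAA. Slpi, a protease inhibitor, rose by 7.06 without DMXAA and changed by 1.20 ± 0.71 with it (difference -5.86, adjusted p = 0.016). Ptx3, a long pentraxin, rose by 5.23 and changed by -0.26 ± 0.47 (difference -5.49, adjusted p = 0.0025), Lcn2, the siderophore-binding lipocalin, by 5.67 and 0.85 ± 0.70 (difference -4.82, adjusted p = 0.034), and Ly6c2, a surface antigen of inflammatory monocytes, by 3.54 and -0.42 ± 0.30 (difference -3.96, adjusted p = 0.0021). Cd5l turned: it rose by 2.16 without DMXAA (adjusted p = 0.017) and fell with it (difference -5.19, adjusted p = 0.0054). The rise of Cd5l was at the counting floor, from between 0.0605 and 0.119 CPM with vehicle to between 0.2 and 0.932 CPM with BO-112. In the vehicle libraries 1 read is worth 0.0593 to 0.0712 CPM. Of 26 cytotoxic and natural killer genes the difference passed for 4, all lower with DMXAA, Ccl5 among them. For Prf1, perforin, the changes were 1.75 without DMXAA and -0.01 with it (difference -1.76, adjusted p = 0.027). In the other direction Nxpe5 fell by 3.16 without DMXAA and by 1.50 with it (difference 1.66, adjusted p = 0.04). Abca9, a lipid transporter, fell by 2.88 without DMXAA and changed by -0.44 ± 0.31 with it (difference 2.44, adjusted p = 0.018). For Il12b, Acod1, Gpr84 and Ass1 the difference did not pass: it was -0.97 ± 0.49, -1.76 ± 0.63, -0.49 ± 0.43 and -0.62 ± 0.31, with adjusted p of 0.377, 0.21, 0.605 and 0.367. The 95% interval for Il12b ran from -2.01 to 0.07.

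**Figure D5:**
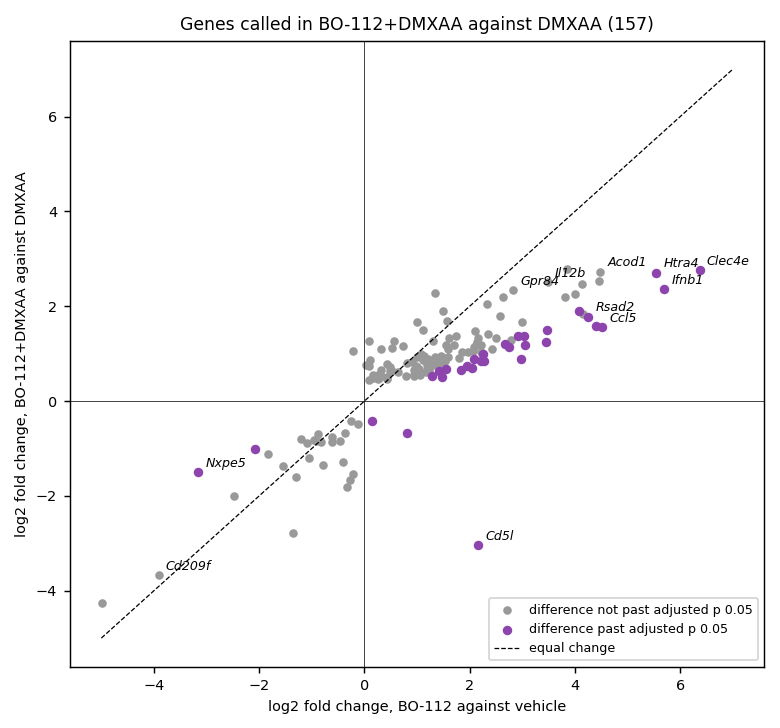
Log2 change with BO-112 against vehicle (horizontal axis) and with BO-112+DMXAA against DMXAA (vertical axis) for the 157 genes past the threshold in the second. Points below the dashed line of equal change in the upper right rose less with DMXAA present; purple marks a difference past an adjusted p of 0.05, as for Ifnb1 (5.70 and 2.36), and Cd5l lies at the lower right (2.16 and -3.04).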

How the data were processed

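Messenger RNA of whole tumours was sequenced as paired reads with a stranded library kit, per the labels' protocols. STAR, edgeR, limma and the genome build mm39 are named in the submitters' processing notes, without versions or roles. How reads were assigned to strands or copies is not given in the sources used here, so near-identical families and antisense partners are uncertain. The deposited log2 table holds CPM of 17712 genes in 15 libraries, with 0.5 reads added before the log and library sizes carrying a scaling factor of each library. Whole reads were recovered from it for 100% of values (largest distance 5.4e-09, tolerance 1e-06), and printed CPM are those reads over the scaled library sizes. The deposited raw table carries no sample names, and its 15 columns of per-sample values were not used.

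Symbols came from GENCODE release 21 by gene identifier, for 17636 genes, and 76 had none. Exon lengths were computed from the exon coordinates of that release, which were not otherwise used for genes. Promoter windows came from RefSeq. With R 4.3.3 and limma 3.58.1 4 group means were estimated from the log2 CPM of all 15 libraries, with a trended and robust variance. The count test set out in the plan needs counts with sample names and was replaced by limma. Benjamini-Hochberg adjustment covered all 17712 genes, separately for the 3 contrasts: BO-112+DMXAA against DMXAA, BO-112 against vehicle, and their difference (the interaction). Errors are standard errors of the fit on the log2 scale with 0.5 reads added, which understates changes of low genes. With 12725316 to 19660511 reads a library in the 8 compared, 1 read is worth 0.0476 to 0.0772 CPM, so counting error is large near 1 CPM.

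The genes named were the 12 largest changes each way past an adjusted p of 0.05 whose mean reached 1 CPM and whose groups were apart, 3 members of smallest p in each of 38 lists (726 measured genes), a panel of 35 genes, and the 6 largest interactions each way. Members, lists and panel were chosen with earlier results of these data known. Named outside that rule, after their values were seen, were Cd209g, Ifit3, Nfkbia, Hap1, Trim30a, Mx2, Trim25, Oas2, Herc6, Cmpk2, Ifi44, Birc3, Traf1, Nfkbie and the genes of the last part. The labels call the replicates biological without naming animals, and p-values measure the spread between these samples. The script was tested on simulated data. Alternatives tried were other scalings, a filter, another pseudocount, limma-voom, weights, the groups alone, a replicate block, a length correction and leaving out libraries.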

Additional observations from a re-analysis of the deposited data

Results flagged for a closer look

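Among the 4 combination tumours a single value lay far from the other 3 for 3 of the genes named: Ddx60 was lowest in replicate 3 at 82 CPM, Il6 highest in replicate 4 at 3.86 CPM, and Rarres2, which encodes chemerin, lowest in replicate 4 at 15.4 CPM. Chance alone gives such a flag in about 1 in 20 groups of 4.

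The effect of BO-112 differed with and without DMXAA for 38 of the genes named, by the interaction with limma and an adjusted p under 0.05. Values are the log2 change with DMXAA less the log2 change without it. Among interferon-stimulated genes and sensors the difference was -1.46 for Ifit1, -1.55 for Ifit2, -2.21 for Ifit3, -2.48 for Rsad2, -2.19 for Oasl1, -1.66 for Mx2 and -2.09 for Usp18. It was -2.24 for Isg15, -2.29 for Irf7, -1.25 for Herc6, -1.98 for Cmpk2, -1.87 for Ifi44, -1.38 for Trim30a, -0.88 for Trim25 and -3.33 for Ifnb1. All of these changes were smaller on top of DMXAA than against vehicle.

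Among further genes of several kinds the difference was -2.82 for Il1rn, -0.97 for Nfkbia, -2.95 for Ccl5, -3.61 for Clec4e, -2.83 for Htra4, -0.78 for Casp4 and -1.61 for Nr1h3. It was -5.86 for Slpi, -4.82 for Lcn2, -5.49 for Ptx3, -3.96 for Ly6c2, -3.97 for Rarres2, -5.49 for Coch, -1.49 for Metrnl and -5.19 for Cd5l. Among cytotoxic genes it was -1.36 for Nkg7 and -1.76 for Prf1. It was positive for Nxpe5 at 1.66, Abca9 at 2.44, Bmf at 1.69, Plxnb1 at 1.43, Kif26b at 1.39 and AA414992 at 2.11.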

How the results depend on the processing

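The 157 genes of BO-112+DMXAA against DMXAA numbered 4 with the 2 groups alone, 252 with the length trend removed, 1 without the 4 libraries high in muscle genes, 7 without DMXAA replicates 2 and 3, 14 with the 2 groups alone and without DMXAA replicate 2, and 760 at an adjusted p under 0.10; leaving out 1 library gave 0 to 1765. The 239 genes of the interaction numbered 114 with total count scaling, 645 with array weights, 36 without the muscle libraries, 710 without DMXAA replicates 2 and 3 and 526 at 0.10, and 65 to 456 with 1 library left out. The 2116 genes of BO-112 against vehicle numbered 4320 with its groups alone, 5006 with array weights, 1090 without the muscle libraries, 4439 without DMXAA replicates 2 and 3, and 1269 to 3524 with 1 library left out. Total count scaling turned the 1353 higher and 763 lower of that comparison to 932 and 1807, with the median gene at -0.20 in place of -0.04. The fits without DMXAA replicates 2 and 3, without replicate 2 in the 2 groups, and at 0.10 were chosen after seeing the data. Median-of-ratios scaling, 2 reads added, the 1 CPM filter, limma-voom, array weights and total count scaling gave 157, 183, 190, 136, 134 and 126 genes in the first comparison. The sign of the 157 changes was the same wherever they were tested, which for genes with groups apart was fixed in the fits that left out libraries. With the replicate block the 3 counts were 168, 283 and 1762. Same-numbered DMXAA and combination libraries correlated by -0.229, -0.112, 0.26 and 0.371 after group means were removed. Libraries of unlike number correlated by -0.423 to 0.401, so these values show no pairing by number but cannot exclude one. The cause of each move was not tested. Depth limits genes near or under 1 CPM, such as Ifnb1, Cd209g and, without DMXAA, Cd5l.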

Other observations

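Of the 127 genes that rose with BO-112 on top of DMXAA 89 belonged to none of the lists. Some of them, chosen after their values were seen, encode parts of innate signalling. Tlr2, a receptor for bacterial lipoproteins, measured 51.6, 72.8, 57.4 and 57.1 CPM with DMXAA and 126, 143, 98.4 and 125 CPM with the combination (1.04 ± 0.16, limma adjusted p = 0.0114). Every combination tumour was above every DMXAA tumour. Peli1, a ubiquitin ligase of Toll-like receptor signalling, rose by 0.84 ± 0.13 and Tank, an adaptor of TBK1, by 0.62 ± 0.10 (adjusted p = 0.0114 and 0.0126). Jak2, the cytokine receptor kinase, rose by 0.86 ± 0.17, Osmr, the oncostatin M receptor, by 1.00 ± 0.22 and Optn, an autophagy adaptor, by 0.90 ± 0.17 (adjusted p = 0.0307, 0.0481 and 0.0307).

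Others encode enzymes and transporters of myeloid cells and of lipid and arginine handling. Cybb, the catalytic chain of the phagocyte NADPH oxidase, went from between 157 and 193 CPM to between 273 and 434 CPM (0.96 ± 0.18, adjusted p = 0.0285). Aoah, which inactivates lipopolysaccharide, rose by 0.92 ± 0.20, Cd38, an NAD glycohydrolase, by 1.10 ± 0.21 and Acsl1, a fatty acyl-CoA synthetase, by 1.33 ± 0.22. Nr1h3, the oxysterol receptor LXR alpha, rose by 1.14 ± 0.22. Slc7a2, an arginine transporter, measured 78.8, 88.2, 41.6 and 103 CPM against 203, 366, 185 and 224 CPM (1.67 ± 0.33, adjusted p = 0.0344), and Enpp2, the enzyme autotaxin, 75.5, 100, 88.6 and 135 CPM against 309, 458, 167 and 250 CPM (1.51 ± 0.29, adjusted p = 0.0307). In both the groups were apart. Of the 30 genes that fell 29 were in no list, and they included the cytoskeletal regulators Cotl1 (-0.88 ± 0.14) and Arhgdib (-0.67 ± 0.13), both with groups apart. Mdm2, the ubiquitin ligase of p53, rose by 0.66 ± 0.14 (adjusted p = 0.0359). Each of these calls was lost without combination replicate 1 and without combination replicate 2.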
